A study of Mus musculus with 4 samples.

Results

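The genes described here are the protein-coding genes of mouse chromosome 15 whose start lies between 58000000 and 74000000 (GRCm38), an interval that holds the oncogene Myc. They were picked by position from the deposited count table, and genes with symbols beginning with Nduf, or with Col and a digit, were left out. The rule gave 57 genes of 51826 in the table. Of the 60 coding genes that the GENCODE M21 annotation places in the interval, 2 were left out by symbol (Ndufb9 and Col22a1) and 1 has no row (Gm49356). Levels in these same libraries guided the choice of the interval, so levels and differences between libraries are given as a description, and nothing is rested on a test of them.

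RNA was sequenced from mouse mammary tumours that all carry the C3-T transgene. HET tumours (Elf5+/-, 2 libraries) have a single intact copy of Elf5, and WT tumours (Elf5+/+, 2 libraries) have both. Per the labels' protocols, each tumour was digested with collagenase and hyaluronidase and sorted with antibodies to CD45, CD31 and TER119 to enrich tumour cells. Both HET titles begin with 1 shared number, which may name an animal, and the WT titles do not share theirs. No label states that the tumours came from separate animals, so a p-value here covers just the spread among the sequenced samples, which may be technical. Strain, age, batch and the promoter behind the transgene were not found in these labels. The design asks how the tumour transcriptome depends on the number of intact Elf5 alleles.

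MYC is a transcription factor that binds DNA with its partner MAX and drives genes of ribosome production, nucleotide synthesis and metabolism, and it is kept short-lived by the ubiquitin ligase subunit FBXW7. In many mouse and human tumours the chromosome segment around Myc is present in extra copies. That segment also holds genes of other kinds, such as Atad2 (a bromodomain ATPase and transcriptional coactivator), Sqle (squalene epoxidase of sterol synthesis), Ptk2 (focal adhesion kinase), Ago2 (the core protein of microRNA silencing complexes) and Ndrg1 (a stress and hypoxia-responsive protein). DNA copy number was not measured in this series.

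Total counts lay between 12695132 and 15307939 per library. Elf5 stood at 5.36 and 10.6 CPM (counts relative to library size, with TMM scaling) in HET 1 and HET 2, and at 35.5 CPM in WT 1 and 4.68 CPM in the library labelled WT 2. The level in the library labelled WT 2 lay below both HET libraries and goes against its label, although a low RNA level does not show which genotype a tumour has. All HET to WT directions below take that label as given. Summed markers of mammary epithelium (10 genes, none at 0) were 2639 and 2367 CPM in HET and 3755 and 3502 CPM in WT. Their HET/WT log2 fold changes were below 0 for 8 of 10 (median -0.44) and above 0 for Krt19 and Cldn7. In this list Krt5, Krt8 and Krt18 lie on chromosome 15. Krt8 stood at 283 and 517 CPM in HET, 784 CPM in WT 1 and 329 CPM in the library labelled WT 2. Krt18 stood at 325 and 526 CPM in HET, 897 CPM in WT 1 and 375 CPM in that library. Krt5 was highest in the library labelled WT 2. Markers of leukocytes (8 genes) were 353 and 307 CPM in HET, 320 CPM in WT 1 and 24.3 CPM in the library labelled WT 2, and fibroblast markers (7 genes) were 3891 and 4882 CPM in HET, 6487 CPM in WT 1 and 21634 CPM in the library labelled WT 2. Log2 fold changes of HET over WT were above 0 for 8 of 8 leukocyte markers (median 0.96). They were below 0 for 7 of 7 fibroblast markers (median -1.21), with no marker of either list at 0. Of all genes tested, 47.3% had a log2 fold change below 0. Endothelial markers (6 genes) were 272 and 486 CPM in HET, 337 CPM in WT 1 and 66.4 CPM in the library labelled WT 2, where Cldn5 was at 0, with log2 fold changes above 0 for 6 of 6 (median 1.38). Markers of T and NK cells (6 genes) were 39.9 and 43.3 CPM in HET. They were 17.1 CPM in WT 1 and 4.47 CPM in the library labelled WT 2. Their log2 fold changes were above 0 for 5 of 5 tested (median 1.97). Macrophage markers (8 genes) were 786 and 497 CPM in HET, 750 CPM in WT 1 and 31.8 CPM in the library labelled WT 2. In bulk samples, fewer cells of a type and less RNA per cell cannot be told apart.

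Of the 57 genes, 41 passed the filter on low counts. The other 16 reached at most 22 counts in any library (1.74 CPM). They were Klhl38, 4933412E24Rik, A1bg, Adcy8, Gm21798, Gm21961, Oc90, Hhla1, Lrrc6, Fam135b, Kcnk9, Gm6569 and the gasdermin C genes Gsdmc, Gsdmc2, Gsdmc3 and Gsdmc4, closely related pore-forming proteins whose counts are uncertain. Gm6569 had 0 counts in all 4 libraries, which at 3 counts allows up to 0.206 and 0.236 CPM in HET 1 and HET 2 and up to 0.228 CPM in WT 1 and 0.196 CPM in the library labelled WT 2. Among the 41, mean levels ran between 0.504 and 308 CPM, and 30 genes averaged at least 10 CPM. Per kilobase of annotated exon, the highest mean levels were those of Ndrg1 (46.7 CPM per kb), Myc (36.2 CPM per kb) and Trib1 (25.5 CPM per kb).

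Most of the measured genes had their highest level in the library WT 1. This was so for 28 of the 41 genes (68.3%), against 24.7% of the 21607 genes tested. WT 1 exceeded HET 1 in 33 of the 41 genes, HET 2 in 34 and the library labelled WT 2 in 36. The median ratio of HET 1 to WT 1 was 0.657 and that of HET 2 to WT 1 was 0.707, while WT 1 stood 1.42-fold above the library labelled WT 2. The other 3 libraries lay close together: the median log2 difference was -0.12 for HET 1 minus the library labelled WT 2, 0.04 for HET 2 minus that library, and 0.05 for HET 2 minus HET 1. By these medians WT 1 stood apart from each of the other 3 libraries. Of the remaining genes, 7 were highest in HET 1 (25.2% of all genes tested were), 2 in HET 2 (23.5%) and 4 in the library labelled WT 2 (26.6%). The lowest level was in HET 1 for 15 genes (23.3% of all genes tested), in HET 2 for 12 (19.0%), in WT 1 for 1 (19.5%) and in the library labelled WT 2 for 13 (38.1%).

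**Figure D1:**
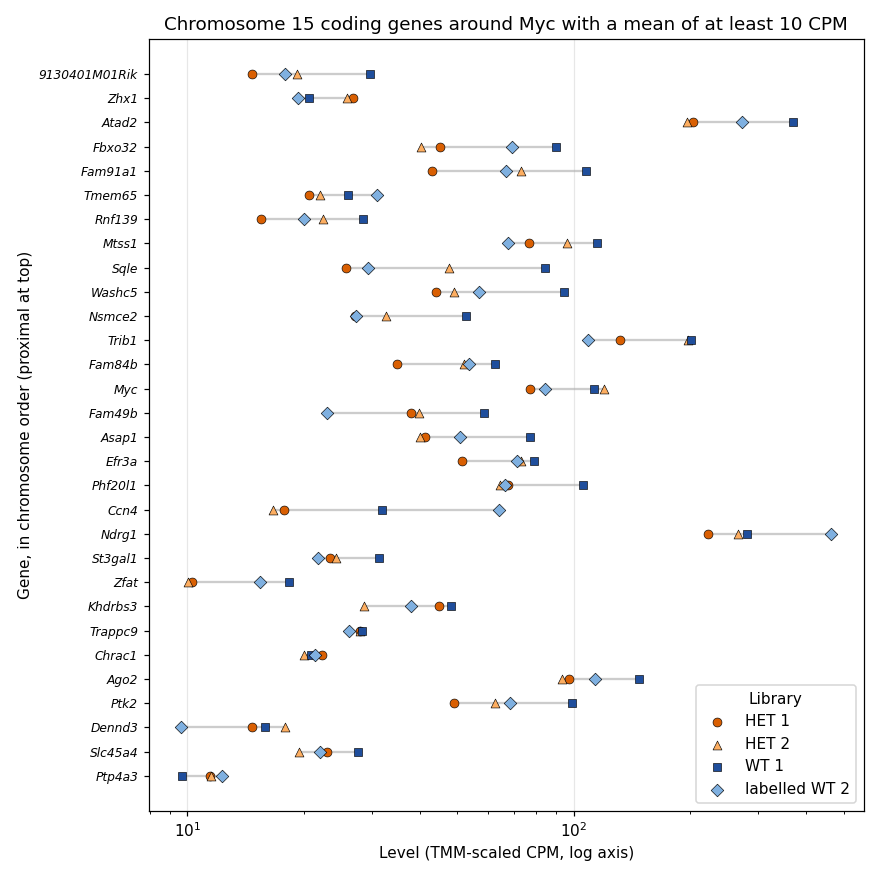
Level of the 30 genes of the interval that averaged at least 10 CPM, in chromosome order down the page. The x axis is TMM-scaled CPM on a log scale, each symbol is 1 library, and the grey line joins the lowest and highest library of a gene. The dark blue squares of WT 1 stand at the right end for 22 of the 30 genes.

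Myc itself (ENSMUSG00000022346.15, chromosome 15, 61985391 to 61990374, plus strand) was not highest in WT 1, although WT 1 exceeded HET 1 and the library labelled WT 2. It stood at 77.2 and 119.5 CPM in HET 1 and HET 2, and at 112.7 CPM in WT 1 and 84.3 CPM in the library labelled WT 2. The highest library was HET 2 and the lowest HET 1, so the WT levels lay within the range of the HET levels. Means were 98.3 CPM in HET and 98.5 CPM in WT, with a log2 fold change of 0.00 ± 0.35 (SE, n = 2 libraries per genotype). Within genotypes, Myc was 1.55-fold higher in HET 2 than in HET 1 and 1.34-fold higher in WT 1 than in the library labelled WT 2. The long noncoding RNA gene Pvt1, which starts just distal of Myc, was also highest in HET 2, at 5.69 and 10.5 CPM in HET 1 and HET 2 and 7.92 CPM in WT 1 and 3.76 CPM in the library labelled WT 2. Of the MYC paralogues, Mycn stood at 5.56 and 0.813 CPM in HET and 4.04 and 2.199 CPM in WT, and Mycl at 4.65 and 2.22 CPM in HET and 5.54 and 5.04 CPM in WT. Per kilobase of exon, Mycn and Mycl averaged 0.957 and 1.08 CPM per kb, far under Myc.

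Of 6 signalling genes that passed the filter, 3 were highest in WT 1. On chromosome 15 outside the interval, 62.5% of coding genes were highest in WT 1, against 24.7% of all genes tested. Both HET libraries lay below both WT libraries in 15.9% of all genes tested. Counts by role in this and the next paragraphs are therefore not read as results about roles. Ptk2 (chromosome 15, 73205102 to 73423280, minus strand) stood at 48.9 and 62.7 CPM in HET 1 and HET 2, and at 98.8 CPM in WT 1 and 68.4 CPM in the library labelled WT 2. Asap1, a GTPase-activating protein for ARF that acts at focal adhesions, stood at 41.1 and 40.1 CPM in HET and 77.2 and 50.7 CPM in WT. In both genes the HET libraries lay below both WT libraries, with a HET/WT log2 fold change of -0.58 ± 0.33 for Ptk2 and -0.66 ± 0.32 for Asap1 (SE). Trib1, a pseudokinase that brings substrates to the ubiquitin ligase COP1, stood at 131.7 and 197.3 CPM in HET and 200.6 and 108.7 CPM in WT. Its groups overlapped, with the same upper and lower libraries within each genotype as Myc. Ptp4a3, which encodes the phosphatase PRL-3, varied little, at 11.4 and 11.5 CPM in HET and 9.66 and 12.3 CPM in WT, and Dennd3, an activator of RAB12, stood at 14.7 and 17.9 CPM in HET and 15.8 and 9.64 CPM in WT. Sla, a SRC-like adaptor of lymphoid and myeloid cells, stood at 18.3 and 9.24 CPM in HET, at 10.5 CPM in WT 1 and at 0 counts in the library labelled WT 2. The leukocyte and endothelial markers given above, and Dennd3, were likewise lowest in that library, and the markers' part in the levels of Sla and Dennd3 was not tested.

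Ubiquitin and SUMO ligase genes were highest in WT 1 in each of the 3 that passed the filter. Fbxo32 (58175879 to 58214932, minus strand), the F-box protein atrogin-1 known from muscle wasting, stood at 45.2 and 40.3 CPM in HET 1 and HET 2, and at 90.1 CPM in WT 1 and 69.2 CPM in the library labelled WT 2. Its HET libraries lay below both WT libraries, with a log2 fold change of -0.90 ± 0.30 (SE). Rnf139, a ligase of the endoplasmic reticulum, stood at 15.5 and 22.5 CPM in HET and 28.5 and 19.999 CPM in WT, and Nsmce2, the SUMO ligase of the SMC5/6 complex, at 27.1 and 32.7 CPM in HET and 52.7 and 27.3 CPM in WT. The groups of both genes overlapped. Klhl38, the remaining gene of this kind, did not pass the filter and had 1 and 4 counts in HET and 11 and 7 counts in WT.

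Among genes of lipids and membranes, Sqle differed most between libraries. It lies at 59315077 to 59331192 on the plus strand and stood at 25.7 and 47.5 CPM in HET 1 and HET 2, and at 84.0 CPM in WT 1 and 29.4 CPM in the library labelled WT 2, a 3.27-fold range. Its 2 WT libraries stood 2.86-fold apart, more than the HET mean lay from the WT mean (log2 fold change -0.63 ± 0.57, SE). Tmem65, a mitochondrial inner membrane protein, was instead highest in the library labelled WT 2, at 20.7 and 22.1 CPM in HET and 26.1 and 31.0 CPM in WT. Efr3a, which holds a phosphatidylinositol kinase at the plasma membrane, stood at 51.3 and 73.2 CPM in HET and 78.8 and 71.3 CPM in WT. The sialyltransferase gene St3gal1 and the transporter gene Slc45a4 spanned 1.44-fold and 1.42-fold over the 4 libraries.

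Of 7 genes of chromatin and RNA in the role list, 6 were highest in WT 1, and so was Atad2, which the list does not hold. Atad2 (58094044 to 58135082, minus strand) stood at 203.5 and 196.9 CPM in HET 1 and HET 2, and at 369.6 CPM in WT 1 and 273.5 CPM in the library labelled WT 2 (log2 fold change -0.68 ± 0.31, SE). Ago2 stood at 97.0 and 93.0 CPM in HET and 147.3 and 113.5 CPM in WT, and the zinc-finger gene Zfat at 10.3 and 10.05 CPM in HET and 18.4 and 15.4 CPM in WT. In these 3 genes both HET libraries lay below both WT libraries, as in 15.9% of all genes tested. Phf20l1, a reader of methylated lysine, was highest in WT 1, at 67.6 and 64.4 CPM in HET and 105.4 and 66.3 CPM in WT. Khdrbs3, a splicing regulator, stood at 44.7 and 28.6 CPM in HET and 48.0 and 37.9 CPM in WT. The gene of the list that was not highest in WT 1 was Chrac1, a histone-fold subunit of a chromatin accessibility complex, at 22.3 and 20.1 CPM in HET and 20.8 and 21.4 CPM in WT, a 1.11-fold range. Chrac1 and Ago2 overlap on opposite strands, and the strand used in counting is not given in the sources used here, so reads from their shared bases cannot be told apart. Zhx1, a zinc-finger homeobox repressor at the proximal end, ran the other way, at 26.8 and 25.9 CPM in HET and 20.6 and 19.4 CPM in WT.

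All 5 trafficking and cytoskeleton genes of the role list were highest in WT 1. Washc5, the strumpellin subunit of the WASH actin complex of endosomes, stood at 44.0 and 49.1 CPM in HET 1 and HET 2, and at 94.3 CPM in WT 1 and 56.7 CPM in the library labelled WT 2. Fam91a1, which takes part in tethering vesicles at the Golgi, stood at 42.9 and 72.9 CPM in HET and 107.5 and 66.9 CPM in WT. The actin-membrane linker Mtss1 stood at 76.8 and 96.2 CPM in HET and 114.9 and 67.4 CPM in WT. Only Washc5 among these had groups that did not overlap. Fam49b, an inhibitor of RAC1 signalling to actin, was lowest in the library labelled WT 2, at 38.005 and 39.7 CPM in HET and 58.7 and 23.0 CPM in WT, as were the leukocyte and endothelial markers, whose part was not tested. Trappc9, a subunit of a TRAPP vesicle tethering complex, had nearly the same level throughout, at 28.1 and 28.0 CPM in HET and 28.3 and 26.2 CPM in WT.

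Ndrg1 and Ccn4 had another pattern, with the highest level in the library labelled WT 2. Ccn4 (formerly Wisp1; 66891320 to 66923201, plus strand), a secreted matricellular protein of WNT signalling, stood at 17.8 and 16.7 CPM in HET 1 and HET 2, and at 31.8 CPM in WT 1 and 63.9 CPM in that library. Its log2 fold change was -1.47 ± 0.41 (SE), the lowest among genes of the interval whose mean log2 CPM reached 1. Ndrg1 stood at 222.7 and 266.4 CPM in HET and 280.9 and 463.4 CPM in WT (log2 fold change -0.61 ± 0.36, SE). In both genes the HET libraries lay below both WT libraries, as in 15.9% of all genes tested. The summed fibroblast markers were also highest in the library labelled WT 2, and their part in Ccn4 and Ndrg1 was not tested.

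Genes known from other tissues, and the remaining genes, were mostly low. Kcnq3, a neuronal potassium channel subunit, stood at 12.2 and 7.76 CPM in HET 1 and HET 2, and at 7.53 CPM in WT 1 and 1.63 CPM in the library labelled WT 2 (log2 fold change 1.13 ± 0.77, SE). Its level was lowest in the library labelled WT 2, where the leukocyte and endothelial markers were also lowest, and their part was not tested. Trmt12, which modifies phenylalanine transfer RNA, was highest in WT 1, at 1.55 and 2.14 CPM in HET and 6.50 and 1.70 CPM in WT. Tg, the thyroglobulin gene, stayed between 1.36 and 1.98 CPM in all libraries. Sla lies within Tg on the opposite strand, so reads from shared bases cannot be told apart. Fam84b stood at 34.9 and 51.9 CPM in HET and 62.4 and 53.7 CPM in WT. Tatdn1, a nuclease, and Wdyhv1, an amidase of protein N-termini, were highest in WT 1, at up to 8.48 and 5.31 CPM. Gm29394, Fer1l6, Tmem71, Gpr20 and Mroh5 stayed at or under 3.04 CPM in every library. In all, 7 pairs of genes in the interval overlap, involving 13 of the 57 genes, among them Rnf139 with Tatdn1 and Gm29394 with Zhx1.

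No gene of the interval passed the comparison of HET with WT. By edgeR's quasi-likelihood test over 21607 genes, 0 passed an adjusted p under 0.05 in either direction (0.0% higher and 0.0% lower), and 0 of the 41 did. At an unadjusted p under 0.05, 395 genes of the table were lower in HET (1.83%) and 422 were higher (1.95%). In the interval 2 were lower at that level, Ccn4 and Fbxo32, and 0 were higher. DESeq2 called 0 of the 41 (43 genes of the table higher, 0.199%, and 91 lower, 0.421%), and limma-voom called 0 in the table. With no filter beyond 1 count edgeR called Ccn4 lower, among 191 genes lower (0.443%) and 133 higher (0.309%). Both HET libraries lay below both WT libraries for 13 of the 41 genes, or 31.7%, against 15.9% of all genes tested, and above both for 4, or 9.76%, against 19.6%. The 13 genes were Gm29394, Atad2, Fbxo32, Tmem65, Washc5, Fam84b, Asap1, Tg, Ccn4, Ndrg1, Zfat, Ago2 and Ptk2, and the 4 were Zhx1, Fer1l6, Kcnq3 and Tmem71. The log2 fold change was below 0 for 31 of the 41 genes (75.6%, against 47.3% of all genes tested), with a median of -0.35 against 0.04. Since these contrasts guided the choice of the interval, nothing is read from these shares.

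**Figure D2:**
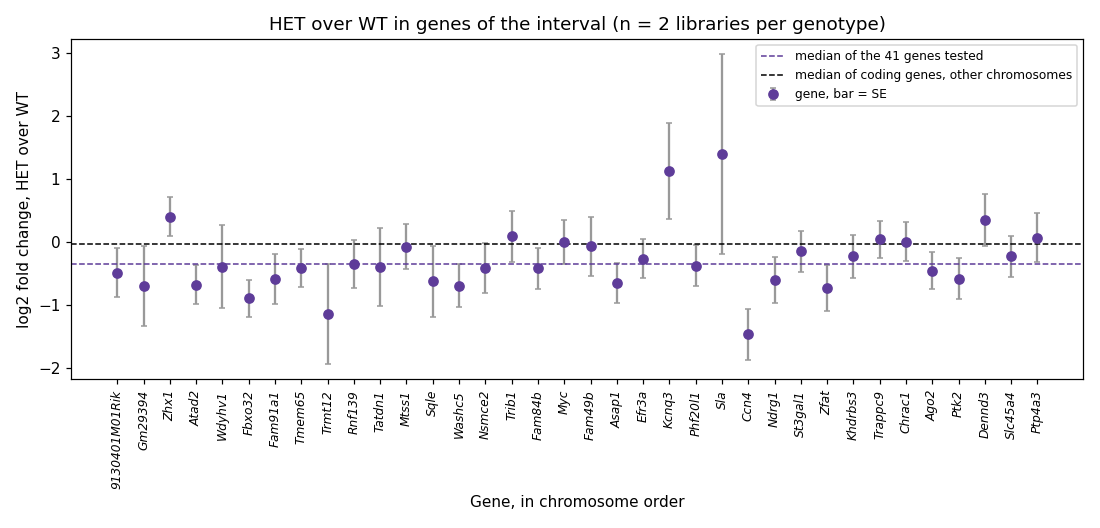
Log2 fold change of HET over WT, with its standard error as bar, for the 36 genes of the interval whose mean log2 CPM was 1 or more, in chromosome order. The purple dashed line is the median of the 41 genes tested (-0.35) and the black dashed line that of coding genes on all other chromosomes (-0.03). Most points lie under 0 with bars that are large beside the differences, and Myc lies on 0.

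The size of this difference rested on WT 1. Without WT 1 the median log2 fold change of the 41 genes was -0.015, and without the library labelled WT 2 it was -0.58. It was -0.28 without HET 1 and -0.53 without HET 2. Without WT 1, where the lone WT library is assumed to vary like the HET libraries, edgeR called Sla higher and Ccn4 lower in HET, among 487 genes higher (2.25%) and 164 lower (0.759%). Both calls rest on the library labelled WT 2. Without that library edgeR called 0 of the 41, and 1 gene of all tested higher (0.00463%) and 8 lower (0.037%). Then 31 of the 41 genes lay lower in both HET libraries than in WT 1, against 33.6% of all genes tested.

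The pattern was shared by the whole of chromosome 15. For each gene, the deviation of a library is its log2 CPM minus the mean of the other 3 libraries. The median deviation of the 41 genes was -0.34 in HET 1, -0.05 in HET 2, 0.55 in WT 1 and -0.10 in the library labelled WT 2. For the 555 coding genes of chromosome 15 outside the interval, which the rule did not use, the median was -0.33 in HET 1, 0.03 in HET 2, 0.60 in WT 1 and -0.20 in the library labelled WT 2. The interval and the rest of its chromosome thus had close values in HET 1 and WT 1. They were less alike in other contrasts. The median log2 difference of HET 2 minus HET 1 was 0.05 in the interval and 0.20 outside it. For HET 2 minus the library labelled WT 2 it was 0.04 and 0.18. Over the 15258 coding genes of the other chromosomes the median deviation was 0.00 in HET 1, 0.05 in HET 2, 0.05 in WT 1 and 0.02 in the library labelled WT 2. WT 1 was the highest library for 62.5% of coding genes on chromosome 15 outside the interval and for 23.1% of coding genes elsewhere. Pooling the other chromosomes hides shifts of single ones. On chromosome 16, 60.3% of 479 coding genes were highest in the library labelled WT 2, whose median deviation there was 0.46. A chromosome-wide shift of a single library was thus not particular to chromosome 15. The median HET/WT log2 fold change was -0.35 in the interval, -0.33 on the rest of the chromosome and -0.03 over the other chromosomes pooled. Single chromosomes ran between -0.32 (chromosome 12, with 73.4% of 519 genes below 0) and 0.31 (chromosome X), beside -0.33 for chromosome 15 (71.1% of 598 genes below 0), so a median HET level this far below WT was not particular to chromosome 15.

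Both sides of the interval had this in common. Below the interval, 147 genes had a median deviation of 0.50 in WT 1 and -0.34 in HET 1, and above it 408 genes had 0.63 and -0.33. The coding genes next to the limits varied. Just below the lower limit, Derl1 (29.8 and 23.7 CPM in HET, 43.9 and 28.1 CPM in WT) and Tbc1d31 (23.2 and 35.9 CPM in HET, 49.3 and 25.3 CPM in WT) were highest in WT 1, while the nearest gene, Fam83a, was highest in HET 2, at 4.01 and 11.2 CPM in HET and 6.65 and 2.13 CPM in WT. Just inside, 9130401M01Rik (14.7 and 19.2 CPM in HET, 29.7 and 17.9 CPM in WT) and Gm29394 (1.75 and 1.33 CPM in HET, 2.85 and 2.1985 CPM in WT) were highest in WT 1 and Zhx1, given above, was not. At the upper limit, Ptp4a3, Mroh5 and Gm6569 lie inside, and Mroh5 stood at 0.776 and 0.148 CPM in HET and 0.950 and 0.142 CPM in WT. Outside it, Mroh4 was highest in WT 1, at 1.68 and 0.517 CPM in HET and 1.98 and 1.42 CPM in WT. Adgrb1 (4.33 and 2.88 CPM in HET, 3.41 and 4.61 CPM in WT) and Arc (352.7 and 410.0 CPM in HET, 389.6 and 547.1 CPM in WT) were highest in the library labelled WT 2.

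**Figure D3:**
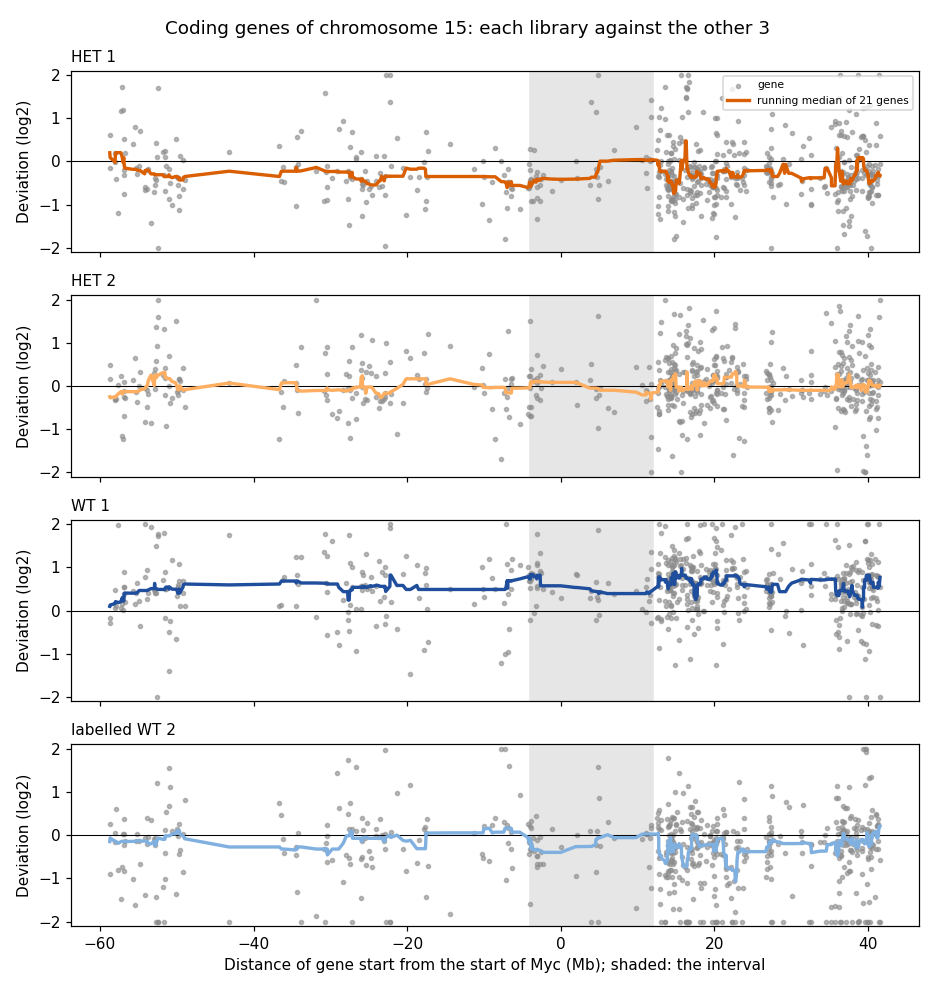
Deviation of each library from the mean of the other 3 (log2, y axis) for 598 coding genes of chromosome 15, against the distance of the gene start from Myc (Mb, x axis), with genes beyond 2 in size drawn at 2. Lines are running medians over 21 genes, which in the sparse shaded interval reach past its limits. The line of WT 1 stays above 0 along the whole chromosome, with a lowest value of 0.08, and that of HET 1 lies under 0 over most of it.

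When the genome was divided into stretches of 16 Mb with at least 20 coding genes each, all 7 stretches of chromosome 15 had a positive median deviation in WT 1, between 0.41 and 0.65. The 169 stretches of the other chromosomes ran between -0.62 and 0.59 in WT 1, with 92 above 0. In HET 1 the 7 stretches of chromosome 15 were between -0.47 and -0.17, against -0.36 to 1.04 elsewhere. By whole chromosomes, the median in WT 1 was 0.60 for chromosome 15, while the others lay between -0.37 (chromosome 9) and 0.28 (chromosome 17). HET 1 was at -0.33 for chromosome 15, against -0.20 (chromosome 13) to 0.30 (chromosome X) for the others. Chromosome 15 had the highest chromosome median in WT 1 and the lowest in HET 1. The deviations share their libraries: WT 1 enters the mean that HET 1 is set against.

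**Figure D4:**
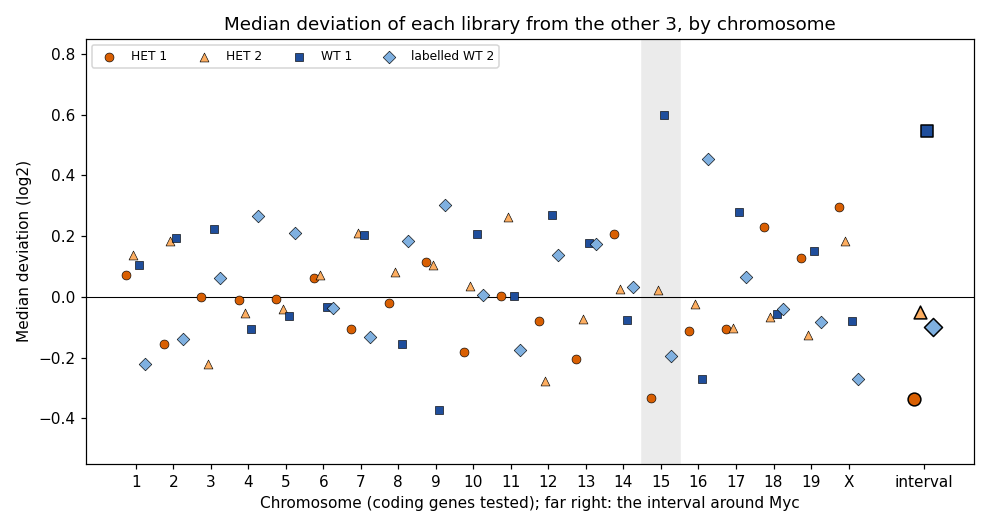
Median deviation of each library from the other 3 (log2, y axis) over the coding genes of each chromosome (x axis), with the 41 genes of the interval at the far right in larger symbols. Chromosome 15 is shaded, and its WT 1 (0.60) and HET 1 (-0.33) symbols lie near those of the interval (0.55 and -0.34).

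Within the interval the pattern was uneven. Between 58 and 60 Mb, where Atad2, Fbxo32, Sqle and Washc5 lie, 17 genes had a median deviation of 0.78 in WT 1 and -0.41 in HET 1, and 14 of them were highest in WT 1. Between 60 and 66 Mb, the stretch that holds Myc, 6 genes had 0.45 and -0.41. Between 66 and 70 Mb, 9 genes had 0.39 and -0.18, and between 70 and 74 Mb, 9 genes had 0.36 and 0.04. In the distal part Ago2 and Ptk2 were high in WT 1 while Trappc9 and Chrac1 nearby were flat. These are small numbers of genes, and no test was made between the stretches.

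Rows of the interval that the rule passed over did not all share the pattern. Ndufb9, a subunit of respiratory complex I, stood at 24.6 and 72.1 CPM in HET 1 and HET 2 and 87.9 CPM in WT 1 and 38.7 CPM in the library labelled WT 2, and was highest in WT 1. Col22a1, a collagen of tissue junctions, stood at 5.24 and 4.36 CPM in HET and 4.36 and 1.35 CPM in WT. Of 70 rows that are not protein coding, 14 passed the filter, with median deviations of 0.26 in HET 1, 0.34 in HET 2, 0.33 in WT 1 and -0.57 in the library labelled WT 2. Peg13, an imprinted noncoding RNA gene within Trappc9, stood at 16.2 and 8.13 CPM in HET and 11.5 and 4.75 CPM in WT. The 14 rows averaged between 0.599 and 32.3 CPM, and their median in WT 1 was close to those in HET 1 and HET 2.

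The genes that work with MYC elsewhere in the genome did not pass between genotypes. In the list of MYC partners and regulators, 0 of 14 passed edgeR's test over all genes tested in either direction (0.0%), and 0 had an unadjusted p under 0.05. DESeq2 and limma-voom also called 0 in this list and in the other MYC lists described next. The median log2 fold change was -0.10. Fbxw7 stood at 59.1 and 48.1 CPM in HET 1 and HET 2 and 78.5 CPM in WT 1 and 63.5 CPM in the library labelled WT 2 (log2 fold change -0.41 ± 0.30, SE; adjusted p = 0.986 by edgeR). Mxd4, a repressor that competes for MAX, stood at 50.1 and 64.1 CPM in HET and 37.9 and 52.1 CPM in WT. Mlxip, a glucose-sensing member of the network, stood at 68.8 and 64.9 CPM in HET and 57.3 and 54.3 CPM in WT. Max itself stood at 29.9 and 29.8 CPM in HET and 46.4 and 25.5 CPM in WT.

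Growth genes known as MYC targets differed within genotypes in the same direction as Myc. The list holds 38 genes outside the interval, such as nucleolar proteins, enzymes of nucleotide and polyamine synthesis and chaperones. Summed levels were 3249 and 5454 CPM in HET 1 and HET 2, and 5228 CPM in WT 1 and 3927 CPM in the library labelled WT 2. HET 2 was above HET 1 in 37 of the 38 genes, against 49.7% of all genes tested, and the gene that ran the other way was Ccnd2. WT 1 was above the library labelled WT 2 in 29 of the 38, against 58.4%. Median deviations were -0.52 in HET 1, 0.35 in HET 2, 0.38 in WT 1 and -0.15 in the library labelled WT 2, while Myc had -0.43 in HET 1, 0.41 in HET 2, 0.29 in WT 1 and -0.27 in the library labelled WT 2. The list was chosen with earlier results of these data known, and the shares over all genes tested are not matched to its levels. These are descriptions of 4 libraries, and no cause of their differences, the level of Myc included, was tested.

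**Figure D5:**
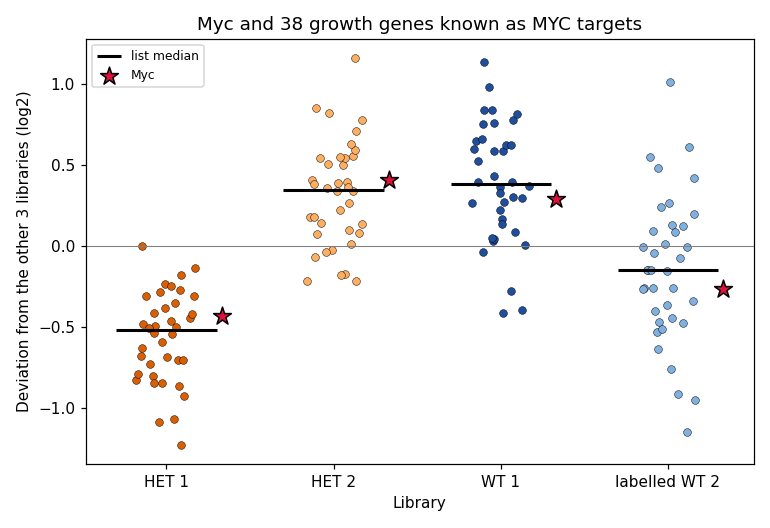
Deviation of each library (x axis) from the mean of the other 3 (log2, y axis) for 38 growth genes known as MYC targets (points) with their median (bar) and for Myc (star). The medians are -0.52 and 0.35 in HET 1 and HET 2 and 0.38 in WT 1 and -0.15 in the library labelled WT 2, and the star lies on the same side of 0 as the median in each library.

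Between genotypes, 0 of the 38 growth genes passed edgeR's test over all genes tested, in either direction (0.0%), and 0 had an unadjusted p under 0.05. The median log2 fold change was -0.18, with 29 of 38 below 0 (47.3% of all genes tested were). It turned to 0.06 without WT 1 and to 0.07 without HET 1. Both HET libraries lay below both WT libraries for 7 of the 38 (15.9% of all genes tested) and above both for 0 (19.6%). Ncl, which encodes the abundant nucleolar protein nucleolin, stood at 983.0 and 1625 CPM in HET 1 and HET 2 and 1459 CPM in WT 1 and 1048 CPM in the library labelled WT 2. Npm1, which encodes nucleophosmin, stood at 362 and 667 CPM in HET and 661 and 399 CPM in WT, so that the genotypes overlapped. The genes of smallest p were Shmt2, Tfrc, Cdk4 and Ldha. Shmt2, a mitochondrial enzyme of one-carbon metabolism, stood at 22.9 and 42.7 CPM in HET and 67.7 and 54.4 CPM in WT (log2 fold change -0.90 ± 0.39, SE; adjusted p = 0.986 by edgeR). The transferrin receptor gene Tfrc stood at 71.9 and 99.9 CPM in HET and 114.5 and 189.4 CPM in WT, and the cell cycle kinase gene Cdk4 at 28.4 and 53.9 CPM in HET and 74.2 and 55.5 CPM in WT. Ldha, lactate dehydrogenase A, stood at 200.4 and 345.7 CPM in HET and 338.1 and 420.0 CPM in WT.

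Genes that MYC is known to repress did not pass either, with 0 of 5 by edgeR (0.0%) and 0 at an unadjusted p under 0.05. Cdkn1a, the cell cycle inhibitor p21, stood at 69.5 and 31.3 CPM in HET 1 and HET 2 and 59.4 CPM in WT 1 and 112.3 CPM in the library labelled WT 2. Thbs1, which encodes the matrix protein thrombospondin, stood at 984.8 and 591.4 CPM in HET and 929.0 and 1532 CPM in WT. Cdkn2b, an inhibitor of CDK4 and CDK6, stood at 19.5 and 11.7 CPM in HET and 28.2 and 17.2 CPM in WT, and Cebpa, a differentiation factor, at 35.5 and 28.7 CPM in HET and 31.9 and 14.96 CPM in WT. The groups of these 4 overlapped. The remaining gene, Gadd45a, stood at 36.6 and 37.2 CPM in HET and 36.4 and 29.6 CPM in WT. Both of its HET libraries thus lay above both WT libraries, as in 19.6% of all genes tested. HET 2 was above HET 1 in 1 of the 5 genes, against 49.7% of all genes tested, and WT 1 was above the library labelled WT 2 in 3 of the 5, against 58.4%.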

How the data were processed

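The authors deposited estimated counts for each gene, and the submitters' processing notes name Salmon and GRCm38.p5. The Salmon version, the annotation and the strandedness are not given there. The values were already whole numbers. Of 51826 identifiers, 51633 matched GENCODE M21 (GRCm38) without their version and took symbols and coordinates from it. Counts were fitted in edgeR 4.0.16 (R 4.3.3) with filterByExpr, TMM scaling and the quasi-likelihood F test, genotype as the only term and all 4 libraries. P-values were adjusted over all 21607 genes tested by the Benjamini-Hochberg method at 0.05. The common biological coefficient of variation was 0.46. Each SE is the size of the log2 fold change over the square root of its F statistic. That statistic draws on spread across genes, so the SE is not the observed spread of replicates alone. Deviations used log2 CPM with a prior count of 2. No library pair agreed within sampling noise (chi-square per degree of freedom 35.7 to 91.9), and all were kept. DESeq2 1.42.0, limma-voom (limma 3.58.1), other scalings, filters and leaving out each library were alternatives. The edgeR fit was tested on simulated data with less spread than these libraries and larger changes than most seen here. That test does not show whether changes of the size reported could be found. Floors of 3 counts cover counting error only. The genes and lists were chosen with earlier results of these data known. The text names Myc, the interval's role-list genes, Elf5, Fbxw7, up to 3 extremes of fold change in each direction and of deviation in each library among genes whose mean log2 CPM reached 1, the genes left out by symbol, and 4 genes of smallest p per MYC list. Atad2, Fam84b, Pvt1, Peg13, Max, Mycn, Ncl, Npm1, Gadd45a, Krt5, Krt8, Krt18, Krt19 and Cldn7 were named after their values were seen.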

Additional observations from a re-analysis of the deposited data

How the results depend on the processing

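No paired analysis was possible because no label ties a HET tumour to a WT tumour: the numbers 1 and 2 used here follow accession order, and the T1 and T2 endings of the titles recur without a stated pairing. The count of genes passing in the table, 0 by edgeR, was 134 in DESeq2 and 324 with no filter beyond 1 count, and between 0 and 651 without each library in turn. The count in the interval was 1 with no filter beyond 1 count (Ccn4), and between 0 and 2 without each library. The median log2 fold change of the genes of the interval ran between -0.58 and -0.015 without each library, and kept its sign under all other alternatives, between -0.43 and -0.28. Of the 41 genes, 5 to 13 were higher in HET without overlap when each library was left out (33.8% to 43.4% of all genes tested were), and 14 to 31 were lower (27.4% to 33.6%), an alternative added after the data were seen. The log2 fold change of Elf5 ran between -2.16 and 0.76 without each library, above 0 without WT 1. Median deviations per library moved by less than the spread between replicates under all scalings, prior counts, filters and library sizes tried. That of the library labelled WT 2 changed sign to 0.02 with relative log expression scaling. The spread used was the pooled standard deviation within genotypes of medians over these genes, 0.26. It includes the gap between WT 1 and the library labelled WT 2, so staying under it does not show that the medians are stable. The Gsdmc genes had not passed the filter, so leaving them out changed nothing. Genes under 10 CPM are limited by depth. The cause of these shifts was not tested, except that leaving out a library leaves fewer samples.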
